A study of Homo sapiens with 24 samples.

Results

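The enzymes that make deoxynucleotides, the building blocks of DNA, or remove them were followed across a breast cancer cell line dataset. They were chosen by name, as the genes TK1, RRM1, RRM2, RRM2B, TYMS, DUT, DCK, DTYMK and SAMHD1 of the raw count table, and make up 9 of that table's 59609 gene symbols. All 9 had enough reads to be tested in both cell lines. Abemaciclib, alone or with fulvestrant, lowered 6 of them in MDA-MB-231 cells and 6 or 7 of them in MDA-MB-453 cells. Of all genes tested, 16.9% (abemaciclib alone) and 18.3% (both drugs) were lower in MDA-MB-231, and 19.4% and 20% in MDA-MB-453. The falls of the enzymes were larger in MDA-MB-453, where the RRM2 and TYMS transcripts dropped to a handful of reads per library.

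Deoxynucleotides are made from ribonucleotides by ribonucleotide reductase, which pairs the large subunit RRM1 with one of the small subunits, RRM2 in dividing cells or the p53-inducible RRM2B. Thymidylate, the one DNA nucleotide with no RNA counterpart, is made by TYMS from dUMP, which DUT supplies by cleaving dUTP, and is phosphorylated further by DTYMK. The kinases TK1 and DCK salvage deoxynucleosides from outside the cell, and SAMHD1 breaks deoxynucleotide triphosphates down. Several of these genes are known targets of the E2F transcription factors, which the retinoblastoma protein holds in check until the cyclin-dependent kinases CDK4 and CDK6 phosphorylate it.

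Transcript levels were measured by 3′ RNA-seq, in which reads start near the poly(A) end of each transcript, in 24 libraries from MDA-MB-231, a mesenchymal line, and MDA-MB-453. Both lines are negative for the oestrogen receptor and are labelled wild type. Each was treated for 5 days with DMSO (the vehicle), abemaciclib (an inhibitor of CDK4 and CDK6) at 500 nM, fulvestrant (a selective degrader of the oestrogen receptor) at 5 nM, or both drugs at these doses, called the combination, with 3 biological replicates in each of the 8 groups. Every group of a line thus comes from 1 cell line, and the lines were kept in different media (RPMI for MDA-MB-231 and DMEM for MDA-MB-453), so that line and medium cannot be told apart. The comparisons ask how a CDK4/6 inhibitor, an oestrogen receptor degrader and their combination change lines that lack the receptor.

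The libraries held between 2873558 and 4158762 counted reads. The gene for the oestrogen receptor, ESR1, had 0 counts in the DMSO libraries of both lines, and VIM, a mesenchymal marker, had 1539 ± 166 CPM (reads of a gene divided by the reads of its library and multiplied by 1e6, SD, n = 3) in MDA-MB-231 with DMSO and 0 counts in all 12 libraries of MDA-MB-453. Replicate 1 of MDA-MB-231 with fulvestrant, replicate 1 of MDA-MB-453 with abemaciclib and replicate 3 of MDA-MB-453 with fulvestrant stood further from the other replicates of their groups than most, with a chi-square per degree of freedom of 7.72 to 9.11, against 2.62 to 6.44 for the other pairs of replicates. Leaving 1 of these libraries out changed the calls of DCK, DUT and RRM2 given below and no other call of the 9 enzymes. The share of reads from the mitochondrial genome was 8.83% ± 0.21 with DMSO, 12.2% ± 1.05 with abemaciclib and 13.75% ± 0.32 with the combination in MDA-MB-231 (SD, n = 3), and 15.2% ± 0.65, 23.8% ± 1.91 and 21.2% ± 0.39 in MDA-MB-453. With these reads removed, the number of the 9 enzymes called in each of these 4 comparisons with DMSO stayed at 6, 6, 8 and 7.

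The regulatory sequence ahead of a gene is where E2F and its partners act, so the promoters of 5 of the enzymes are shown, RRM2, TYMS and TK1 because their transcripts fell furthest in MDA-MB-453, DUT because it carried most matches, and SAMHD1 because its transcript behaved differently in the 2 lines. The windows come from RefSeq (GRCh38.p14), which held promoters for 8 of the 9 genes, all but RRM2B. Each run is the 250 bases upstream of an annotated start, 5′ to 3′ on the strand of the gene. Where a gene has several annotated starts, the window with most motif matches is given. Capitals mark exact matches, on either strand, to an E2F site (TTTCCCGC, TTTCGCGC, TTTGCCGC or TTTGGCGC), to the cell cycle homology region (CHR, TTTGAA) or to the CCAAT box. These motifs do not overlap each other in the runs printed.
RRM2 at chr2:10122489-10122738, plus strand, with 3 CCAAT boxes: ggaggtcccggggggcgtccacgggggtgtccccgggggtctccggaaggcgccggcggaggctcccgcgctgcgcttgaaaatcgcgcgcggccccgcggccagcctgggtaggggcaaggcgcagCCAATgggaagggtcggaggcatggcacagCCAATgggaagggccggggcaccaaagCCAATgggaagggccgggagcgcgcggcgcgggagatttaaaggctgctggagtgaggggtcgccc
TK1 at chr17:78187053-78187302, minus strand, with 2 CCAAT boxes read on the opposite strand: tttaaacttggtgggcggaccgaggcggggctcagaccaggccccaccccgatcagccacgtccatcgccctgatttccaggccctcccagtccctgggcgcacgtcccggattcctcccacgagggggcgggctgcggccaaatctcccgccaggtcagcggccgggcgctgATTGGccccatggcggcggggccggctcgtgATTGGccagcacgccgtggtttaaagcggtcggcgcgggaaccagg
TYMS at chr18:657403-657652, plus strand, with 1 E2F site on the opposite strand: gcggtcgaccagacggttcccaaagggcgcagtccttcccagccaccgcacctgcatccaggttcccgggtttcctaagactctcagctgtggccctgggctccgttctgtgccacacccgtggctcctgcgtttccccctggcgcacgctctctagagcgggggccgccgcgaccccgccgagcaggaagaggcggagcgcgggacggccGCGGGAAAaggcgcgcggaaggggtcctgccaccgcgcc
DUT at chr15:48331947-48332196, plus strand, with 2 CHR elements and 2 E2F sites: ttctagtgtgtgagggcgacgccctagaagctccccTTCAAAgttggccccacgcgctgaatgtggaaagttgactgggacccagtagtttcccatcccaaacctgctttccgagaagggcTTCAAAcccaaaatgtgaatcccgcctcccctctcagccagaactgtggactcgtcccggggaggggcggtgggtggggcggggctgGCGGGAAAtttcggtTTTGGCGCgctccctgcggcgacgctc
SAMHD1 at chr20:36951709-36951958, minus strand, with 2 CCAAT boxes: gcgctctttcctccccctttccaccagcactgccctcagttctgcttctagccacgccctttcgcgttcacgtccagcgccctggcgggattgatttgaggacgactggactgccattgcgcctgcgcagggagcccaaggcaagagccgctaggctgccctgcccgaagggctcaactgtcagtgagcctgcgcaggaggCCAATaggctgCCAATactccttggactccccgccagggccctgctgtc

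In windows of 300 bases, which also take in 50 bases past the start, an E2F site was found for 3 of the 8 genes (TYMS, DUT and DCK), a CHR for 2 (RRM1 and DUT) and a CCAAT box for 5 (TK1, RRM1, RRM2, DTYMK and SAMHD1). Of all 35116 promoter windows, 3.31% held an E2F site, 15.2% a CHR and 34.6% a CCAAT box. These shares are per window, whereas a gene was counted if any of its windows matched. A gene with several windows, such as DUT with 4, had more room for a match, so the 2 measures are not alike. The CCAAT boxes of RRM2 began 123, 93 and 66 bases before the start and those of TK1 77 and 46 bases before it. The E2F site of TYMS lay 39 bases before the start, those of DUT 42 and 27 bases before it, and that of DCK 21 bases past it. The interferon-stimulated response element, searched for because SAMHD1 is known as an interferon-induced gene in some cells, was in none of the 8 genes' windows and in 3.57% of all windows. These are matches of letters and not measured binding.

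**Figure D1:**
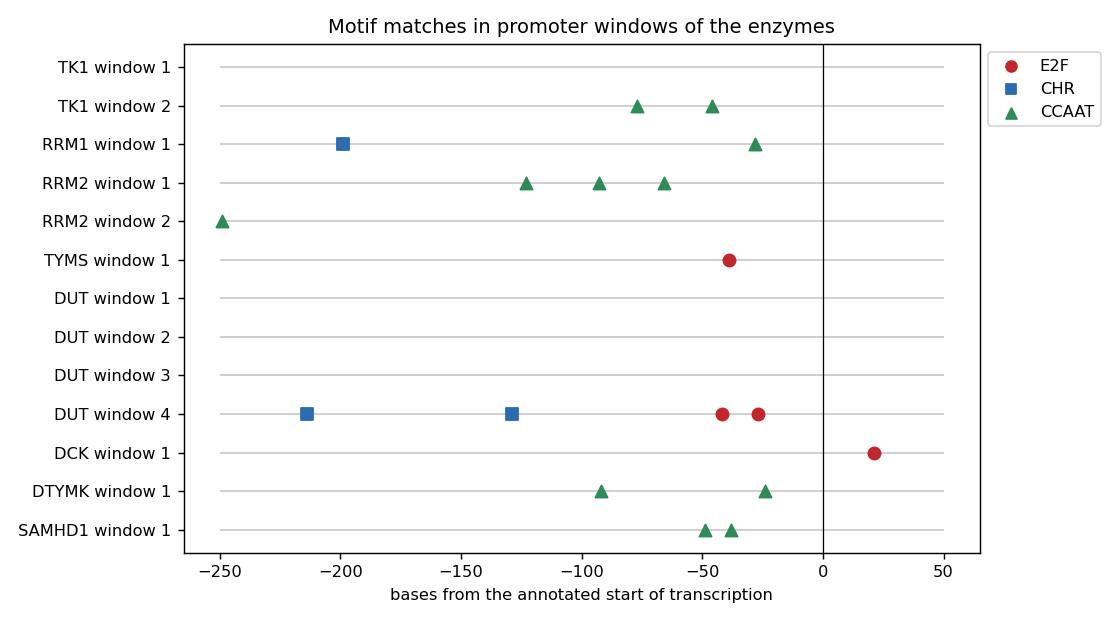
Position of motif matches, in bases from the annotated start of transcription (0 on the horizontal axis), in each promoter window of 8 of the enzymes (1 line each); circles are E2F sites, squares CHR elements and triangles CCAAT boxes. RRM2 window 1 holds 3 CCAAT boxes and DUT window 4 holds 2 E2F sites and 2 CHR elements, whereas 4 of the 13 windows hold no match.

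On the annotation used for positions (GENCODE 44, GRCh38), RRM1 lies at chr11:4094707-4138932 and RRM2 at chr2:10120698-10211725, both on the plus strand, and RRM2B at chr8:102204502-102238961 on the minus strand. TYMS (chr18:657653-673578, plus strand), DUT (chr15:48331011-48343373, plus strand) and DTYMK (chr2:241675747-241686944, minus strand) are the thymidylate genes. TK1 lies at chr17:78174091-78187233 on the minus strand, DCK at chr4:70992538-71030914 on the plus strand and SAMHD1 at chr20:36890229-36951893 on the minus strand. Because reads come from the 3′ end, counts of different genes depend on how well each end is captured, and levels are compared below only within a gene.

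Against DMSO, abemaciclib lowered 6 of the 9 enzymes in MDA-MB-231 and raised none. Here a gene is called when its adjusted p in the edgeR quasi-likelihood test, corrected over all genes tested in the comparison, is below 0.05. Of the 11314 genes tested, 16.9% were called lower and 16.9% higher. The median change of the 9 enzymes was −0.73 on the log2 scale and that of all genes −5e-04. In MDA-MB-453, 7 of the 9 were lower and 1 was higher, where 19.4% of 11080 genes were lower and 16.6% higher, and the medians were −1.75 and −0.0019. The combination lowered the same number, 6, in MDA-MB-231 (18.3% of all genes lower, 17% higher) and lowered 6 and raised 1 in MDA-MB-453 (20% lower, 17.6% higher). In these bulk libraries, fewer cells in the phase of the cycle that uses an enzyme and less RNA per cell cannot be told apart.

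**Figure D2:**
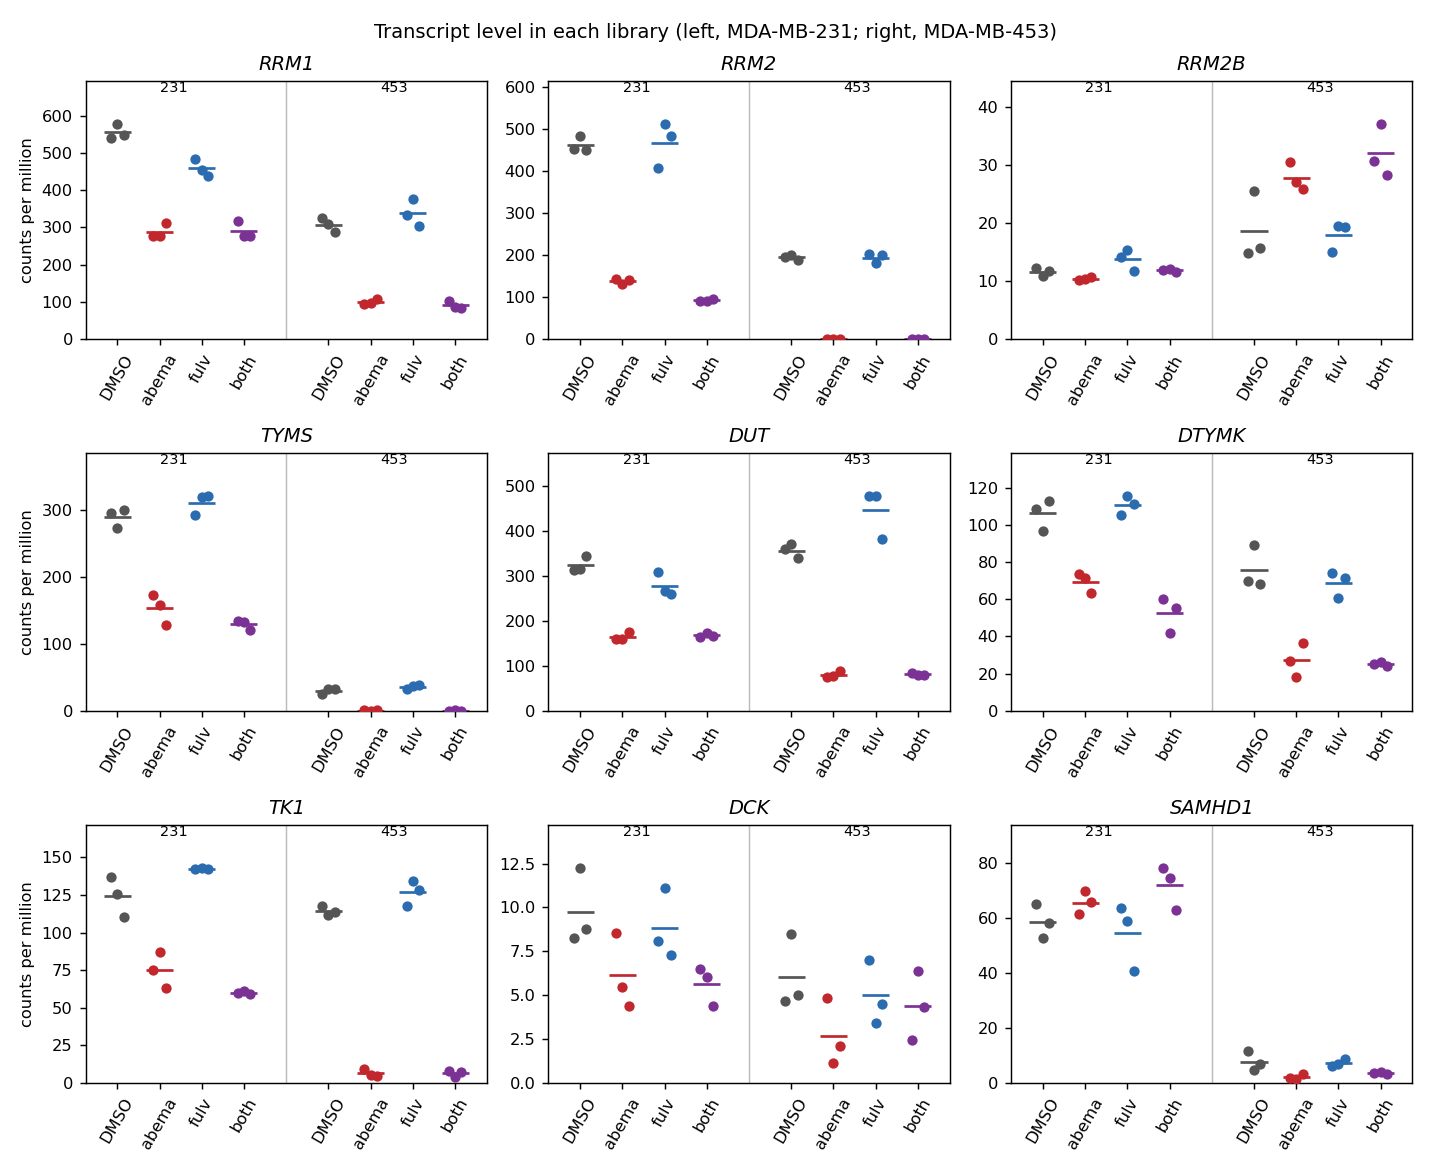
CPM of each enzyme transcript (vertical axes, from 0) in every library (points) with the mean of 3 replicates (bars), for DMSO, abemaciclib (abema), fulvestrant (fulv) and the combination (both), with MDA-MB-231 to the left and MDA-MB-453 to the right of each panel. In MDA-MB-453 the treated RRM2 and TYMS points lie at the axis, at up to 1.27 and 1.01 CPM, while RRM2B is higher with abemaciclib than with DMSO.

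RRM2, the small subunit of ribonucleotide reductase used in S phase, showed the largest fall of the 9 in both lines. In MDA-MB-231 it stood at 452, 483 and 450 CPM with DMSO and at 144, 130 and 139 CPM with abemaciclib. With the combination it was at 90.0, 90.2 and 96.1 CPM, and with fulvestrant at 406, 511 and 482 CPM. The abemaciclib libraries lay below every DMSO library and the combination libraries below every abemaciclib library. The first of these separations held for 22.4% of all genes and the second for 8.73%. The log2 fold change was −1.74 ± 0.10 (SE, n = 3 per group, adjusted p = 1.08e-17) with abemaciclib and −2.33 ± 0.10 (adjusted p = 1.22e-21) with the combination.

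In MDA-MB-453, RRM2 all but disappeared from the count table. The DMSO libraries held 670, 728 and 679 reads of it, the fulvestrant libraries 747, 685 and 666, the abemaciclib libraries 5, 1 and 4, and the combination libraries 3, 3 and 4. Abemaciclib thus lowered RRM2 by 212-fold (95% counting interval, 115 to 444) and the combination by 199-fold (108 to 416). These intervals cover counting error only and leave out the spread between replicates. They take each read as independent, and no correction for copies is stated. The fitted log2 fold changes were −7.60 ± 0.22 (adjusted p = 5.42e-31) and −7.59 ± 0.22 (adjusted p = 7.07e-31), and RRM2 ranked 11th and 16th among 11080 genes by size of decrease.

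RRM1, the large catalytic subunit, fell less than RRM2. It stood at 541, 578 and 548 CPM with DMSO, 278, 277 and 312 CPM with abemaciclib and 319, 277 and 278 CPM with the combination in MDA-MB-231. The abemaciclib change was −0.94 ± 0.09 on the log2 scale (adjusted p = 4.19e-11) and that of the combination −0.94 ± 0.09 (adjusted p = 3.5e-11). In MDA-MB-453 the values were 325, 308 and 289 CPM with DMSO, 94.6, 98.2 and 109 CPM with abemaciclib and 103, 85.4 and 83.8 CPM with the combination. No treated library overlapped DMSO, and the changes were −1.53 ± 0.10 (adjusted p = 1.11e-16) and −1.77 ± 0.11 (adjusted p = 1.11e-18). Such a separation below DMSO held for 27.6% of all genes with abemaciclib and 25.2% with the combination.

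RRM2B, the small subunit that cells outside S phase can use for repair and for mitochondrial DNA, was not called lower in either line. In MDA-MB-231 its level was 12.2, 10.8 and 11.8 CPM with DMSO, 10.2, 10.3 and 10.7 CPM with abemaciclib and 11.9, 12.0 and 11.6 CPM with the combination. The change with abemaciclib was −0.15 (95% CI, −0.72 to 0.41, adjusted p = 0.717). The highest abemaciclib library (10.7 CPM) lay just below the lowest DMSO library (10.8 CPM), a separation that 22.4% of all genes had. In MDA-MB-453 it rose from 14.9, 25.5 and 15.8 CPM to 30.6, 27.1 and 25.9 CPM with abemaciclib and 30.6, 37.1 and 28.3 CPM with the combination. The log2 fold change was 0.65 ± 0.22 (adjusted p = 0.0143) and 0.76 ± 0.21 (adjusted p = 0.00388), and every treated library lay above every DMSO library. This separation held for 17.3% of all genes with abemaciclib and for 23.9% with the combination. The abemaciclib call was lost without DMSO replicate 1 (0.51, adjusted p = 0.10) or DMSO replicate 3 (0.56, adjusted p = 0.0771). CDKN1A and MDM2, also linked to p53 and looked up after their values were seen, had changes of −0.24 (adjusted p = 0.576) and −0.51 (adjusted p = 0.00902) with abemaciclib in MDA-MB-453. Whether p53 had a part in the RRM2B change was not tested.

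The balance of the small subunits therefore differed between treated and untreated libraries. RRM2B made up 2.63%, 2.19% and 2.56% of the RRM2 and RRM2B reads in MDA-MB-231 with DMSO, 6.64%, 7.38% and 7.13% with abemaciclib and 11.6%, 11.8% and 10.8% with the combination. In MDA-MB-453 it was 7.07%, 11.3% and 7.75% with DMSO, 96.0%, 99.0% and 95.6% with abemaciclib and 96.7%, 97.7% and 96.5% with the combination. The treated and DMSO libraries did not overlap in these 4 comparisons, and each reached p = 0.1 in a two-sided exact permutation test, the smallest that 3 libraries against 3 allow (adjusted p = 0.15 over 12 share tests). With fulvestrant the share was 2.88% ± 0.50 in MDA-MB-231 (exact p = 0.3) and 8.50% ± 1.41 in MDA-MB-453 (exact p = 0.9). These are shares of reads at 3′ ends and need not equal shares of transcripts.

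**Figure D3:**
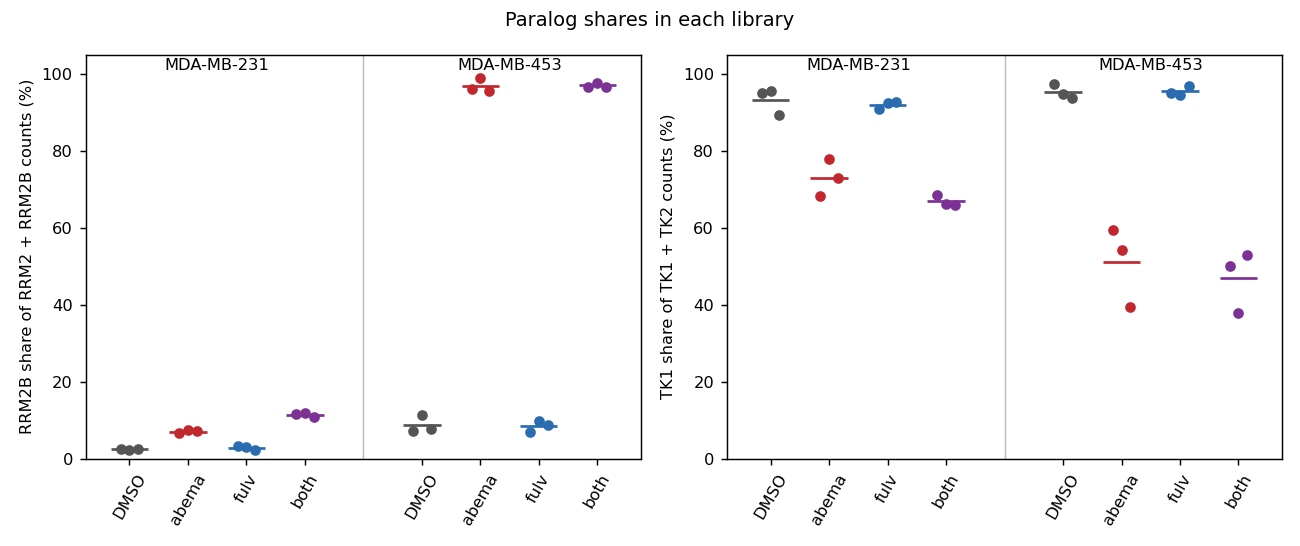
Share of RRM2B among RRM2 and RRM2B reads (left) and of TK1 among TK1 and TK2 reads (right), in percent, in every library (points) with the mean of 3 replicates (bars), by line and treatment. The RRM2B share lies between 95.6% and 99.0% in the abemaciclib libraries of MDA-MB-453 and between 2.19% and 11.8% in all libraries of MDA-MB-231.

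TYMS, thymidylate synthase, the target of fluorouracil, fell in both lines and to near 0 reads in MDA-MB-453. Its levels in MDA-MB-231 went from 296, 273 and 300 CPM with DMSO to 173, 158 and 128 CPM with abemaciclib and 134, 132 and 121 CPM with the combination, changes of −0.92 ± 0.11 (adjusted p = 2.88e-09) and −1.17 ± 0.11 (adjusted p = 5.5e-12). In MDA-MB-453 the DMSO libraries held 84, 121 and 118 reads, the abemaciclib libraries 4, 0 and 2 and the combination libraries 0, 2 and 1. The ratio of DMSO to treated level was 55.1 (95% counting interval, 25.0 to 151) with abemaciclib and 103 (35 to 503) with the combination, the latter resting on 3 reads. The adjusted p values were 2.11e-15 and 5.61e-16.

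The last exons of TYMS share 967 exon bases with ENOSF1 on the opposite strand, and its first exons share 193 with the antisense gene TYMSOS. Whether reads were assigned by strand is not given in the sources used here, so reads of these genes may not be separable. ENOSF1 had log2 changes of 0.21 (adjusted p = 0.617) in MDA-MB-231 and −0.18 (adjusted p = 0.837) in MDA-MB-453 with abemaciclib. TYMSOS held 129 reads in the 3 DMSO libraries of MDA-MB-453, 7 in the abemaciclib libraries and 0 in the combination libraries. The same limit holds for SAMHD1, which shares 1068 exon bases with TLDC2, for DUT (533 with DUT-AS1) and RRM1 (63 with RRM1-AS1), each on the opposite strand, and for DCK, which shares 199 with MOB1B on its own strand.

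DUT, which keeps uracil out of DNA, changed alongside RRM1. Its levels in MDA-MB-231 were 314, 314 and 343 CPM with DMSO, 160, 159 and 175 CPM with abemaciclib and 164, 173 and 167 CPM with the combination, and the changes were −0.97 ± 0.10 (adjusted p = 1.13e-10) and −0.95 ± 0.10 (adjusted p = 1.55e-10). In MDA-MB-453 they were 359, 370 and 339 CPM, 74.4, 78.0 and 89.3 CPM, and 84.2, 80.5 and 80.4 CPM. These changes were −2.06 ± 0.10 (adjusted p = 2.09e-21) and −2.13 ± 0.10 (adjusted p = 6.85e-22), with no overlap of treated and DMSO libraries. Of all genes, 27.6% lay below DMSO in this way with abemaciclib and 25.2% with the combination. Of the 13 DUT, TYMS and RRM2 pseudogenes in the table, 11 had 0 reads in all libraries and the most any other had in 1 library was 7 (DUTP6).

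DTYMK, thymidylate kinase, fell in both lines. In MDA-MB-231 it moved from 109, 96.9 and 113 CPM to 73.5, 71.7 and 63.3 CPM with abemaciclib and to 60.4, 42.1 and 55.2 CPM with the combination. The changes were −0.61 ± 0.13 (adjusted p = 3.08e-04) and −1.02 ± 0.13 (adjusted p = 5.02e-08). In MDA-MB-453 it moved from 69.8, 89.2 and 68.1 CPM to 27.1, 18.1 and 36.7 CPM and to 25.1, 26.4 and 24.0 CPM, changes of −1.40 ± 0.17 (adjusted p = 7.13e-09) and −1.60 ± 0.18 (adjusted p = 3.57e-10).

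TK1, the cytosolic thymidine kinase and a serum marker of proliferation, fell in both lines, and by over 4 log2 units in MDA-MB-453. Its levels in MDA-MB-231 were 137, 126 and 111 CPM with DMSO, 74.9, 86.9 and 63.3 CPM with abemaciclib and 59.6, 61.3 and 59.3 CPM with the combination. In MDA-MB-453 it stood at 117, 111 and 114 CPM with DMSO, 8.86, 5.20 and 4.51 CPM with abemaciclib and 7.66, 4.06 and 6.89 CPM with the combination. These treated levels rest on 35, 19 and 15 reads with abemaciclib and 22, 14 and 27 with the combination. The changes in MDA-MB-231 were −0.73 ± 0.12 (adjusted p = 9.41e-06) and −1.06 ± 0.13 (adjusted p = 5.87e-09), and those in MDA-MB-453 −4.10 ± 0.19 (adjusted p = 6.01e-23) and −4.21 ± 0.19 (adjusted p = 3.43e-23).

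TK2, the mitochondrial thymidine kinase, is no member of the 9 but shares its substrate with TK1. It rose in MDA-MB-231 from 7.32, 5.84 and 13.3 CPM to 34.9, 24.6 and 23.6 CPM with abemaciclib (1.65 ± 0.26, adjusted p = 2e-06), while in MDA-MB-453 its change was 0.13 ± 0.42 (adjusted p = 0.85). TK1 made up 93.2% ± 3.48 of the TK1 and TK2 reads with DMSO, 73.0% ± 4.86 with abemaciclib and 66.9% ± 1.37 with the combination in MDA-MB-231 (SD, n = 3). The corresponding shares in MDA-MB-453 were 95.4% ± 1.80, 51.0% ± 10.3 and 46.9% ± 8.01. None of these treated groups overlapped DMSO (exact permutation p = 0.1 in each, the smallest possible, adjusted p = 0.15). TK2 had few reads in MDA-MB-453, with 11, 22 and 27 with DMSO, 24, 16 and 23 with abemaciclib and 22, 23 and 24 with the combination.

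DCK, the deoxycytidine kinase that activates cytarabine and gemcitabine, had few reads and was called in none of these 4 comparisons. Its counts were 27, 42 and 29 reads with DMSO and 30, 18 and 16 with abemaciclib in MDA-MB-231, and 16, 31 and 18 against 19, 4 and 7 in MDA-MB-453. The changes were −0.67 (95% CI, −1.43 to 0.08, adjusted p = 0.17) and −1.08 (−2.13 to −0.03, adjusted p = 0.105), intervals that reach from near 0 to a decrease of more than 1 log2 unit. Without replicate 1 of MDA-MB-453 with abemaciclib, which stood apart from the other replicates, the change was −1.80 (adjusted p = 0.0235). The combination changes were −0.80 (adjusted p = 0.0908) and −0.45 (adjusted p = 0.511).

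SAMHD1, the triphosphohydrolase that empties deoxynucleotide pools, did not fall in MDA-MB-231. It stood at 64.9, 52.6 and 58.2 CPM with DMSO, 61.3, 69.6 and 65.5 CPM with abemaciclib and 78.1, 74.3 and 62.6 CPM with the combination, and the changes were 0.16 ± 0.15 (adjusted p = 0.437) and 0.29 ± 0.15 (adjusted p = 0.131). Against fulvestrant the combination was higher by 0.39 ± 0.15 (adjusted p = 0.0368), a call lost without fulvestrant replicate 3 (0.24, adjusted p = 0.261), combination replicate 1 (0.32, adjusted p = 0.149) or combination replicate 2 (0.37, adjusted p = 0.0951). In MDA-MB-453 the counts were low. They were 39, 17 and 25 reads with DMSO, 7, 5 and 11 with abemaciclib and 10, 14 and 13 with the combination. The change was −1.75 ± 0.49 with abemaciclib (adjusted p = 0.00413), and −1.36 (adjusted p = 0.0617) without DMSO replicate 1. With the combination it was −1.08 ± 0.46 (adjusted p = 0.062). No combination library reached the lowest DMSO library, a separation below DMSO that 25.2% of all genes had.

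Ordered by their change with abemaciclib in MDA-MB-231, from the largest fall upwards, the enzymes ran RRM2, DUT, RRM1, TYMS, TK1, DCK, DTYMK, RRM2B and SAMHD1. For each pair of neighbours the log2 ratio of their counts was compared between the groups. The abemaciclib and DMSO ranges were apart for 3 of the 8 pairs (RRM2 and DUT, DTYMK and RRM2B, RRM2B and SAMHD1) and overlapped for the others. In MDA-MB-453 the order was RRM2, TYMS, TK1, DUT, SAMHD1, RRM1, DTYMK, DCK and RRM2B, with 4 of 8 pairs apart (RRM2 and TYMS, TYMS and TK1, TK1 and DUT, DCK and RRM2B). The exact permutation p was 0.1 for each pair that was apart, the smallest possible, and 0.229 after adjustment over the 16 pairs. The order was taken from these same libraries, which largely set the direction of each ratio beforehand. The test therefore cannot decide which neighbours differ, and the ranges are given as a description. With a prior of 2 counts in place of 0.5, TYMS and TK1 overlapped.

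**Figure D4:**
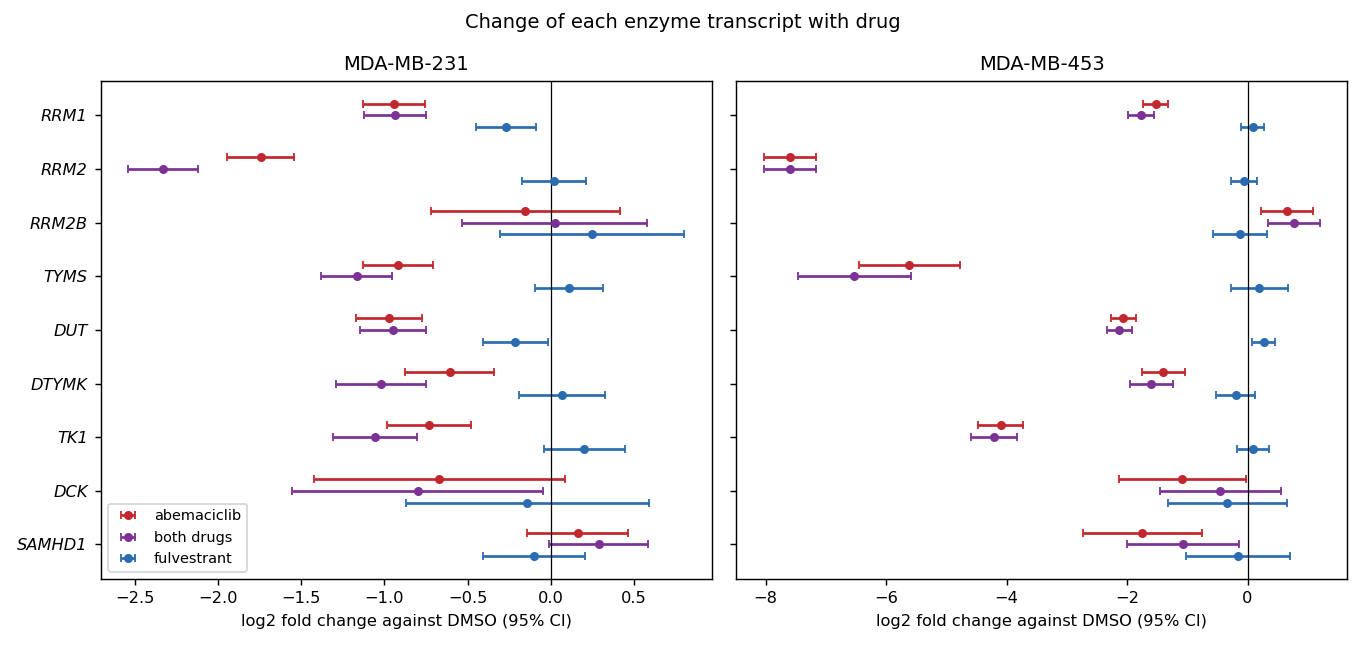
Log2 fold change against DMSO (horizontal axes, whose scales differ between the panels) of each enzyme with abemaciclib, the combination and fulvestrant, with 95% confidence intervals from the edgeR fit over 3 libraries per group. RRM2 lies furthest left in both lines, at −1.74 and −2.33 in MDA-MB-231 and at −7.60 and −7.59 in MDA-MB-453, and the fulvestrant points lie between −0.34 and 0.27.

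Fulvestrant alone called none of the 9 enzymes in either line. In MDA-MB-231 it called no gene at all (0% of 11314 by edgeR, with 799 genes at an unadjusted p below 0.05), and in MDA-MB-453 it called 1.41% of 11080. DESeq2 called none of the 9 in MDA-MB-231 and DUT in MDA-MB-453. The changes of the enzymes ran from −0.27 (RRM1, adjusted p = 0.451) to 0.25 (RRM2B, adjusted p = 0.897) in MDA-MB-231 and from −0.34 (DCK, adjusted p = 0.838) to 0.27 (DUT, adjusted p = 0.147) in MDA-MB-453. At an unadjusted p below 0.05 were RRM1 (0.00446) and DUT (0.0322) in MDA-MB-231 and DUT (0.00608) in MDA-MB-453. DUT stood at 478, 477 and 383 CPM with fulvestrant in MDA-MB-453. Each lay above the highest DMSO library (370 CPM), a separation that 10.9% of all genes had. Without fulvestrant replicate 3, which stood apart from the other replicates, the change of DUT was 0.36 (adjusted p = 0.00515). DESeq2, which called DUT, gave 0.28 (adjusted p = 0.0435) on all libraries.

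The combination differed from abemaciclib alone for 1 enzyme, RRM2 in MDA-MB-231. Its change between these groups was −0.59 ± 0.11 (95% CI, −0.80 to −0.37, adjusted p = 0.00721), and only 3 of 11314 genes (0.0265%) were called in this comparison, RRM2, CCN2 (−0.67) and CHD1 (0.74). The call was lost without abemaciclib replicate 1 (−0.55, adjusted p = 0.194), combination replicate 1 (−0.57, adjusted p = 0.0817) or combination replicate 2 (−0.56, adjusted p = 0.0839). DTYMK (−0.41, adjusted p = 0.251), TK1 (−0.33, adjusted p = 0.362) and TYMS (−0.25, adjusted p = 0.407) were lower without passing the test, and RRM1 (0.01) and DUT (0.02) had values near 0. In MDA-MB-453 no enzyme was called by edgeR or DESeq2, where edgeR called 2.46% of genes, RRM1 alone had an unadjusted p below 0.05 (0.033), and the interval for RRM2 was wide, at 0.01 (95% CI, −1.14 to 1.15), with 10 reads in each group.

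Whether the drugs together did more than the sum of their separate changes was tested as an interaction on the log2 scale. In MDA-MB-231 the interaction of RRM2 was −0.61 ± 0.14 (adjusted p = 0.061), beside 0.124% of genes called. At an unadjusted p below 0.05 were also TK1 (−0.53), DTYMK (−0.48), TYMS (−0.36) and RRM1 (0.28), none of them called. RRM2 passed the threshold without fulvestrant replicate 1, which stood apart from the other replicates (−0.70, adjusted p = 3.8e-04), without abemaciclib replicate 3 (−0.60, adjusted p = 0.0252), with DESeq2 (−0.61, adjusted p = 0.0111) and without the filter on low counts (−0.60, adjusted p = 0.0165). In MDA-MB-453 no enzyme was called by edgeR or DESeq2, where edgeR called 3.8% of genes. DUT had −0.34 (unadjusted p = 0.0234, adjusted p = 0.215) and RRM1 −0.32 (unadjusted p = 0.0315, adjusted p = 0.252). DUT was called there without fulvestrant replicate 3 (−0.43, adjusted p = 0.0294).

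Set against fulvestrant alone, the combination lowered 6 enzymes and raised SAMHD1 in MDA-MB-231, where 18.5% of genes were lower and 17.6% higher. In MDA-MB-453 it lowered 6 and raised RRM2B (0.89 ± 0.22, adjusted p = 9.52e-04), where 19.4% were lower and 17.2% higher. RRM2 changed by −2.35 ± 0.10 and −7.53 ± 0.22 in this comparison, and TK1 by −1.26 ± 0.13 and −4.31 ± 0.19. These comparisons share the combination libraries with those against DMSO and abemaciclib.

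The change with abemaciclib was more negative in MDA-MB-453 than in MDA-MB-231 for 7 of the 9 enzymes in a test of the difference itself, where 13% of 12750 genes were lower and 7.72% higher. The difference, MDA-MB-453 minus MDA-MB-231, was −5.85 ± 0.26 for RRM2 (adjusted p = 2.24e-23), −4.69 ± 0.39 for TYMS (adjusted p = 1.48e-13) and −3.36 ± 0.23 for TK1 (adjusted p = 2.31e-16). RRM1 (−0.58), DUT (−1.08), DTYMK (−0.78) and SAMHD1 (−1.91) were also called, DTYMK with an adjusted p of 0.00948 that became 0.0503 without DMSO replicate 2 of MDA-MB-453. RRM2B differed the other way, by 0.82 ± 0.33 (adjusted p = 0.0764), and was called without that DMSO library (1.10, adjusted p = 0.0187). DCK differed by −0.40 (95% CI, −1.64 to 0.85, adjusted p = 0.755).

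With the combination, 6 of the 9 differed between the lines, where 11.6% of genes were lower and 6.16% higher. TYMS (−5.38 ± 0.45), RRM2 (−5.27 ± 0.27), TK1 (−3.17 ± 0.24), SAMHD1 (−1.37 ± 0.37), DUT (−1.19 ± 0.14) and RRM1 (−0.84 ± 0.14) were called. The SAMHD1 call was lost without DMSO replicate 1 of MDA-MB-453 (−1.04, adjusted p = 0.0656). DTYMK differed by −0.59 (adjusted p = 0.0704) and passed the threshold in 4 alternatives, among them without the mitochondrial reads (−0.67, adjusted p = 0.0353).

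The untreated lines were not alike. With DMSO, 5 enzymes were lower in MDA-MB-453 than in MDA-MB-231 and 1 was higher, in a comparison that called 35.6% of genes lower and 34.3% higher. TYMS had a log2 difference of −3.19 ± 0.14 (adjusted p = 1.94e-25), SAMHD1 of −2.87 ± 0.23 (adjusted p = 9.87e-16), RRM2 of −1.18 ± 0.10 (adjusted p = 6.88e-15) and RRM1 of −0.79 ± 0.09 (adjusted p = 2.86e-10). DTYMK (−0.42, adjusted p = 0.012) lost its call without DMSO replicate 1 or 3 of MDA-MB-453, and RRM2B (0.75, adjusted p = 0.00453) lost its call without DMSO replicate 2 (0.43, adjusted p = 0.14), the library in which it was highest. TK1 (−0.06, adjusted p = 0.697), DUT (0.20, adjusted p = 0.0532) and DCK (−0.62, adjusted p = 0.173) were not called, although DUT was without the mitochondrial reads (0.21, adjusted p = 0.0421). TK1 thus had DMSO levels of 124 ± 13.2 CPM (SD, n = 3, MDA-MB-231) and 114 ± 3.06 CPM (MDA-MB-453), whereas TYMS and SAMHD1 started from fewer reads in MDA-MB-453.

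The rest of nucleotide metabolism was taken from 8 lists of 73 genes in all. With abemaciclib, 22 of the 67 tested in MDA-MB-231 were lower and 9 higher, and 27 of the 63 tested in MDA-MB-453 were lower and 7 higher. Over all genes, 16.9% were lower and 16.9% higher in MDA-MB-231 and 19.4% and 16.6% in MDA-MB-453, shares against which the counts of every list that follows should be read. With the combination, 27 were lower and 8 higher in MDA-MB-231, and 28 were lower and 7 higher in MDA-MB-453. The median change over the tested genes was −0.25 and −0.31 with abemaciclib, nearer to 0 than that of the 9 enzymes in each line.

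Some of the folate genes that feed TYMS fell. Of 7 tested, none was higher, while 3 (MDA-MB-231) and 5 (MDA-MB-453) were lower. MTHFD1L (−1.02 and −2.71) and MTHFD2 (−0.67 and −0.73), which handle one-carbon units in mitochondria, fell in both lines, as did their cytosolic counterpart MTHFD1 (−0.44 and −1.10). In de novo pyrimidine synthesis, 2 of 5 and 4 of 5 were lower, among them CTPS1, CTP synthase, at −1.19 and −1.15. UMPS fell in both lines (−0.62 and −0.53), and CAD had −0.20 (adjusted p = 0.282) and −0.93 (adjusted p = 1.54e-05).

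Purine genes fell in both lines. Of 12 tested for de novo synthesis, 7 were lower and none higher in MDA-MB-231, led by GMPS (−1.33) and GART (−0.86), and 5 were lower and 1 higher in MDA-MB-453, where IMPDH2 (−0.92) and IMPDH1 (−0.88) were lower and PPAT (0.85) higher. The salvage enzyme HPRT1 fell in both lines (−0.49 and −1.22), and APRT in MDA-MB-453 (−0.54). Among the genes that clear or clean deoxynucleotide pools, 3 of 14 were lower and 2 higher in MDA-MB-231 and 7 of 11 lower in MDA-MB-453. NUDT1, which removes oxidised nucleotides, fell in both (−0.57 and −1.99), with PNP (−0.53) falling and NT5C2 (0.87) rising in MDA-MB-231. ITPA rose in MDA-MB-231 (0.40) and fell in the other line (−0.32), a difference of −0.72 ± 0.18 (adjusted p = 0.00243).

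Other nucleoside and nucleotide kinases did not follow TK1. In MDA-MB-231, 6 of 19 rose and 3 fell, with TK2 (1.65) and the mitochondrial adenylate kinase AK4 (1.59) among those that rose and UCK2 (−0.72) and NME1 (−0.51) among those that fell. In MDA-MB-453, 4 of 18 rose, among them AK3 (1.14) and CMPK1 (0.37), and 3 fell, among them UCK2 (−0.92) and NME4 (−0.65). NME4, a mitochondrial nucleoside diphosphate kinase, rose in MDA-MB-231 (0.93), and the difference between the lines was −1.58 ± 0.17 (adjusted p = 1.85e-10). Of the 4 genes that pass electrons to ribonucleotide reductase, GLRX (0.56) rose and GSR (−0.56) fell in MDA-MB-231, and GSR (0.31) rose in MDA-MB-453, a difference between the lines of 0.88 ± 0.17 (adjusted p = 7.89e-05). Of the 4 nucleoside or nucleotide transporters tested, SLC29A1 fell in both lines (−0.65 and −0.72). The nucleotide carrier gene SLC25A33 (−1.28) fell in MDA-MB-231 and SLC25A36 (0.71), another, rose in MDA-MB-453.

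**Figure D5:**
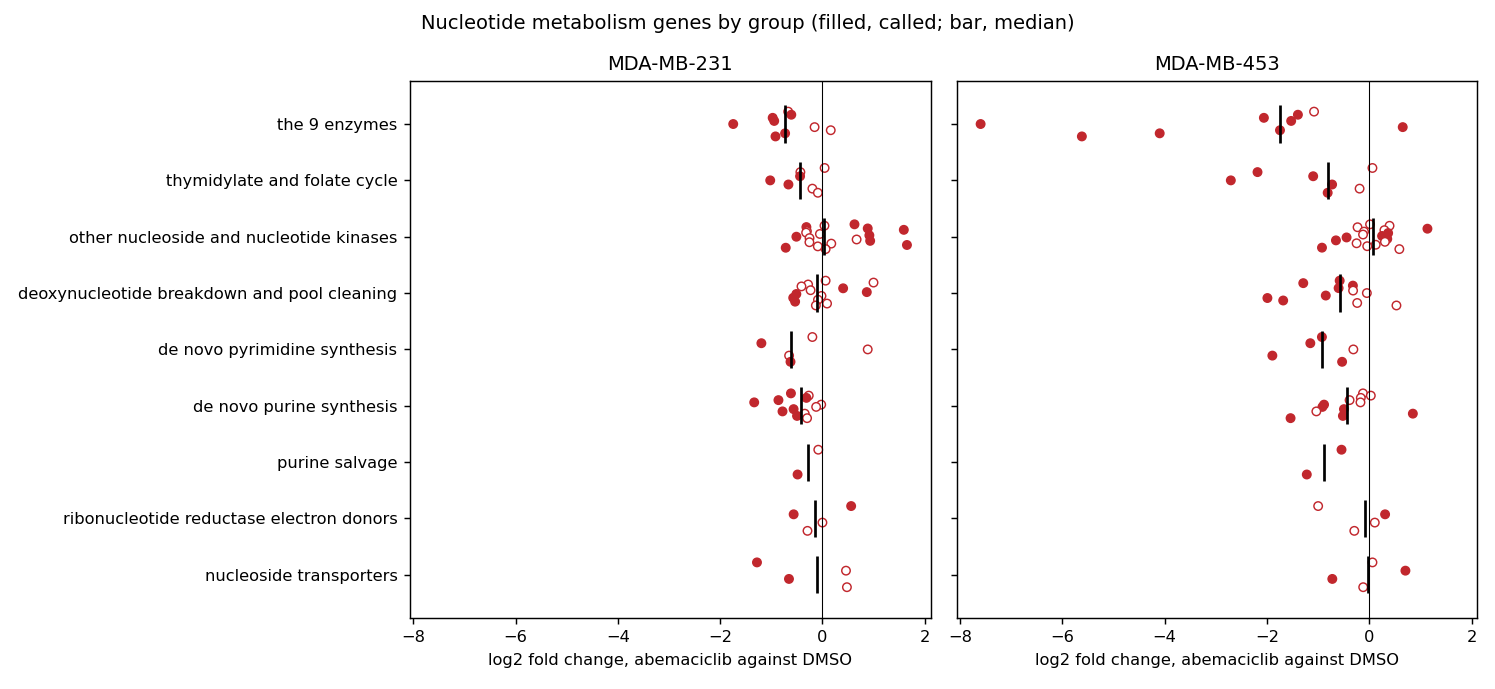
Log2 fold change with abemaciclib against DMSO (horizontal axis, shared by both panels) of the 9 enzymes (at the top) and of the genes of 8 nucleotide metabolism lists, 1 point per tested gene, filled where the adjusted p was below 0.05, with the median of each list as a bar. The 9 enzymes have medians of −0.73 (MDA-MB-231) and −1.75 (MDA-MB-453), and the kinases lie on both sides of 0.

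Transcripts of proteins known to control these genes were read as a last list of 18. With abemaciclib, 9 of 18 were lower and 1 higher in MDA-MB-231, and 11 of 17 lower and 1 higher in MDA-MB-453, with medians of −0.44 and −1.75. MYBL2, a partner of the complex that binds CHR elements, changed by −1.42 ± 0.11 (adjusted p = 7.14e-14) and −7.66 ± 0.18 (adjusted p = 8.37e-34). CCNA2, cyclin A2, changed by −1.58 (adjusted p = 1.84e-11) and −6.30 (adjusted p = 3.78e-18), and E2F2 by −1.99 (adjusted p = 2e-05) and −6.73 ± 0.36 (adjusted p = 3.68e-20), while E2F3 rose in MDA-MB-453 (0.65 ± 0.20, adjusted p = 0.00986).

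The genes whose profiles were most like each enzyme were found from Pearson's r over the 12 libraries of a line, averaged over both lines, among 7809 genes (7810 for DCK) averaging at least 10 CPM. The libraries fall into those with and those without abemaciclib and share their scaling, so r mostly reflects that division, and it is given as a description. RRM2 was most like MT2A (0.993), PHF19 (0.993) and MYBL2 (0.992), RRM1 like DUT (0.987), and DUT like MKI67 (0.992), the proliferation marker. TYMS was most like RANBP1 (0.981), TK1 like FBL (0.986), and DTYMK like CDKN3 (0.962). RRM2B (ELL, 0.775), DCK (FANCA, 0.823) and SAMHD1 (ALDH5A1, 0.793) had no gene as close. Few reads may limit r for DCK, for SAMHD1 in MDA-MB-453 and for RRM2B in MDA-MB-231, which was not tested.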

How the data were processed

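RNA from 24 cultures (2 breast cancer lines, 4 treatments, 3 biological replicates) was sequenced by QuantSeq 3′ RNA-seq with single-end reads of 100 bases. Per the study's methods, BBDuk 38.90 removed adapters and poor reads, STAR 2.7.5b placed the reads on hg38, and featureCounts from Subread 2.0.1 assigned them to GENCODE 35 genes. The values used here are these raw read counts, as deposited by the authors. How strand, multimapping reads and PCR copies were handled is not given in the sources used here. Because a 3′ read marks a transcript end, genes that overlap there may share reads.

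The deposited counts were scaled by TMM and tested with the edgeR quasi-likelihood test (edgeR 4.0.16, limma 3.58.1, R 4.3.3) on genes passing filterByExpr. Each line's 12 libraries were fitted together by treatment, and comparisons between lines used all 24. P values were adjusted by Benjamini-Hochberg over all genes tested in a comparison, and SE and 95% CI come from the same fit. CPM are counts over library totals. With 3 libraries per group, p values measure the spread between these cultures of 1 cell line each. Intervals of read ratios are exact for counting error only. Library totals ranged from 2873558 to 4158762 reads, so a group total of 3 reads corresponds to 0.255 to 0.30 CPM. The single line of the table without a gene name held 0 counts.

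The 9 enzymes and the lists were chosen with earlier results of these data known. Genes named besides the 9 were, in each list, up to 2 higher and 2 lower genes with the largest change among those called with abemaciclib at 10 CPM or more, and the 3 genes with the highest mean r for each enzyme, of which those given in the text lead. Some genes this rule names are not reported here. NME4, ITPA and GSR in both lines, TK2, MDM2, CDKN1A, ENOSF1, TYMSOS, CHD1 and CCN2 are named beside a result of the enzymes or for their direction, after their values were seen. Alternatives were DESeq2 1.42.0, RLE factors, no filter on low counts, only the groups compared, no mitochondrial counts, a replicate block, a minimum absolute log2 fold change of 1 and leaving out each library. The fitting code was tested on simulated data.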

Additional observations from a re-analysis of the deposited data

Results flagged for a closer look

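The change with abemaciclib differed between the lines, in the edgeR test of the difference over all 24 libraries, for 7 of the 9 enzymes. Of all 12750 genes tested, 13% were lower and 7.72% higher in this test. The log2 difference, MDA-MB-453 minus MDA-MB-231, was −5.85 for RRM2, −4.69 for TYMS, −3.36 for TK1, −1.91 for SAMHD1, −1.08 for DUT, −0.78 for DTYMK and −0.58 for RRM1. With the combination it was −5.38 for TYMS, −5.27 for RRM2, −3.17 for TK1, −1.37 for SAMHD1, −1.19 for DUT and −0.84 for RRM1. Both sets of differences share the DMSO libraries, and the lines grew in different media, so line and medium cannot be told apart.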

How the results depend on the processing

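Of 1773 recomputed changes of the 9 enzymes, 1697 kept their direction and side of the threshold, 14 lost and 17 gained a call, and 45 changed sign, the last only in changes that were not called. RLE factors changed none of the counts of called enzymes given here. The number of enzymes called rose from 0 to 1 for the interaction in MDA-MB-231 with DESeq2 and without the filter on low counts, and from 0 to 1 for fulvestrant in MDA-MB-453 with DESeq2. Requiring an absolute log2 fold change of 1 moved it from 6 to 1 for abemaciclib in MDA-MB-231, from 1 to 0 for the combination against abemaciclib there, from 7 to 4 for the combination against fulvestrant there and from 6 to 3 between the lines with DMSO. Here and for libraries left out, moves that were smaller relative to the count are not listed. Under this threshold RRM1 and DUT also lost their calls for the combination against DMSO in MDA-MB-231, and RRM2B lost its calls in MDA-MB-453. In the tests of the drug effect between the lines, RRM1 lost its calls and DTYMK its call with abemaciclib. Leaving out 1 library gave 0 to 1 for the interaction in each line, 0 to 1 for the combination against abemaciclib in MDA-MB-231 and 0 to 1 for fulvestrant in MDA-MB-453. In the last comparison and in the MDA-MB-453 interaction the library was fulvestrant replicate 3. The cause of these moves was not tested, other than that a fold threshold can only remove calls.

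No effect shared by libraries of the same replicate number was seen. The correlation of same-numbered deviations ran from −0.19 to 0.058 and passed 0.1 in 0 of 18 pairs in each line. How the replicates were laid out is not given in the sources used here, so these values cannot show whether the cultures were paired. With the replicate block the counts of called enzymes stayed at 6, 0, 6, 1, 7 and 0 (MDA-MB-231), at 8, 0, 7, 0, 7 and 0 (MDA-MB-453) and at 7, 6 and 6 (between lines), in the order abemaciclib, fulvestrant, combination, combination against abemaciclib, combination against fulvestrant and interaction. DTYMK in the MDA-MB-453 interaction went from −0.0061 to 0.0067 with the replicate block, and without the filter on low counts RRM2 for the combination against abemaciclib there went from 0.0072 to −0.0155.

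Leaving out 1 library turned the sign of these changes, none of them called. For the combination in MDA-MB-231 against abemaciclib, this held for DCK (−0.3296 to 0.1899), DUT (−0.0005 to 0.0663) and RRM1 (−0.0646 to 0.0612). For fulvestrant in MDA-MB-231, this held for DCK (−0.337 to 0.0646), RRM2 (−0.0477 to 0.1167) and SAMHD1 (−0.2229 to 0.0701). For the interaction in MDA-MB-231, this held for DCK (−0.1951 to 0.3299) and RRM2B (−0.1624 to 0.0154). For the combination in MDA-MB-453 against fulvestrant, this held for DCK (−0.4734 to 0.2064). For the difference between lines in the combination effect, this held for DCK (−0.013 to 0.6468). For the combination in MDA-MB-453 against abemaciclib, this held for DTYMK (−0.4208 to 0.0812), DUT (−0.152 to 0.028), RRM2 (−0.4065 to 0.3144), RRM2B (−0.0098 to 0.1985) and TK1 (−0.2696 to 0.219). For the interaction in MDA-MB-453, this held for DTYMK (−0.2268 to 0.2745), RRM2 (−0.346 to 0.3751), RRM2B (−0.0478 to 0.3725) and TK1 (−0.3643 to 0.1251). For the combination in MDA-MB-231 against DMSO, this held for RRM2B (−0.0223 to 0.0588). For fulvestrant in MDA-MB-453, this held for RRM2B (−0.2633 to 0.1572) and SAMHD1 (−0.4163 to 0.2345). For the lines with DMSO, this held for TK1 (−0.1479 to 0.0137). Depth limits the values of DCK in both lines. It also limits those of RRM2, TYMS, TK1, TK2 and SAMHD1 in MDA-MB-453 with abemaciclib or the combination. All of these rest on at most 42 reads in a library.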
